A study of Mus musculus with 12 samples.

Results

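The genes described here were those whose mRNA was measured in both tissues of a study of lipid-anchored proteasomes, mouse fetal liver and immortalized mouse embryonic fibroblasts (MEFs), so that the effect of 1 mutation could be set side by side in the 2 settings. A gene entered when its value was at least 1 in 3 or more of the 6 liver libraries and at least 10 in 2 or more of the 5 MEF libraries. Of 25952 entries in either table, 21704 stood in both and 10818 passed both minimums. The liver minimum was passed by 12938 genes and the MEF minimum by 13241. Just inside and just outside the minimums lay 2810029C07Rik and Prtg in liver (third-highest values 1.00043 and 0.999406) and A230050P20Rik and 1700109H08Rik in MEFs (second-highest values 10.304 and 9.8613). In 141 members at least 1 of the 2 minimums was reached in 1 genotype only.

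The mutant groups had the genotype Rpt2G2A/G2A, called G2A below, with the G2A allele of Rpt2, the proteasome ATPase encoded by Psmc1, on both chromosomes. The reference groups were wild type (WT). The livers were taken at E12.5 from 3 pairs of WT and G2A littermates, with 3 libraries per genotype, in FPKM. The labels do not say which libraries shared a litter, and the fits take no account of litter unless a block by number is named. Each liver library is bulk RNA from a whole organ in which blood precursors, hepatoblasts, endothelium and mesenchyme lie together, so fewer cells of a type and less RNA per cell cannot be told apart. The MEFs were immortalized cells, WT in 3 libraries and G2A in 2, in reads divided by 1 size factor per library, called normalized reads below. A column matching the third labelled G2A MEF sample was not found, and that sample is not analysed here. All samples were untreated. The labels do not say how the MEFs were immortalized, or whether the MEF libraries came from separate embryos, lines or cultures, so the p-values measure only the spread between these samples.

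As background, the 26S proteasome degrades ubiquitin-tagged proteins. Rpt2 is 1 of the ATPases at the base of its regulatory particle, and its N-terminal glycine, exposed when the first methionine is removed, carries a myristoyl lipid that N-myristoyltransferases attach and that lets the particle sit at membranes. The G2A allele replaces that glycine and so removes the attachment point. In mouse, Psmc1 (ENSMUSG00000021178.8) lies on the plus strand of chr12:101348396-101361574 in NCBIM37. Its start codon is in coding exon 1, at chr12:101348419-101348421, and codon 2 opens coding exon 2, at chr12:101350541-101350543. The start of the reference coding sequence is shown because it holds the edited position; the glycine codon, codon 2, is in capitals.
Psmc1 coding start, 57 bases, plus strand: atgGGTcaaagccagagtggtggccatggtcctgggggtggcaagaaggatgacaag

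The 2 tables were never compared value for value. Within each, the G2A effect of a gene was the mean of log2(value + 1) in G2A minus that in WT, and the question asked was where the liver effect and the MEF effect differed. A pseudocount of 1 makes an effect smaller than the true log2 change at low values. The MEF libraries held 36415586 to 37695116 whole reads. The liver columns summed to 792987 to 840762 FPKM, and the read depth behind them is unknown. No library is shared between the 2 effects.

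Some libraries stood apart from their group. On the first principal component of the MEF table, which held 73.4% of the variance, WT MEF 1 and WT MEF 2 lay at -87.2 and -92.0, WT MEF 3 at 72.5 and the G2A MEFs at 51.5 and 55.2. WT MEF 3 correlated at r = 0.890 and 0.882 with the other WT MEFs and at 0.953 and 0.958 with the G2A MEFs, where WT MEF 1 and 2 reached 0.984 between them. Xist, the RNA of the inactive X chromosome, stood at 2.06 and 0 normalized reads in WT MEF 1 and 2 and at 38335, 9705 and 13311 in WT MEF 3 and the 2 G2A MEFs, and the Y-linked Ddx3y at 3075 and 2554 against 0, 23.7 and 0. Hoxc8, a gene of positional identity, followed the same split, with 2.06 and 1.04 against 2837, 1378 and 1407. Genotype and the origin of the cells therefore cannot be told apart when the G2A MEFs are set against WT MEF 1 and 2. The MEF effect against WT MEF 3 alone is given beside many genes and lists, mostly where it turned the sign or moved the value by over 1.5 times. Not all such cases are marked. In liver, G2A liver 3 lay at -7.91 on the first component (37.9% of the variance), between the WT livers at -13.3 to -23.3 and the other G2A livers at 30.6 and 34.9. Afp and Alb, made by hepatoblasts, stood at 4523 to 6966 and 2479.77 to 4149.57 FPKM in the livers. In MEFs Alb stood at 305, 330 and 0 normalized reads in WT and 275 and 0 in G2A. The Y-linked Eif2s3y, Uty and Kdm5d stood at 27.6, 11.8 and 7.89 in G2A MEF 1 and at 0 in WT MEF 3 and G2A MEF 2. The source of these reads was not tested. By the same sex-linked genes G2A liver 1, G2A liver 3 and WT liver 1 were male and the other livers female.

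The liver and MEF effects differed in 239 of the 10818 genes (2.21%; limma effects, Benjamini-Hochberg adjusted p under 0.05). In 145 genes (1.34%) the liver effect lay above the MEF effect and in 94 (0.869%) below it. Collagen chains, matrix proteases, receptor tyrosine kinases, endoplasmic reticulum (ER) chaperones and stress targets were among the first group. Proteasome subunits, mitochondrial ribosomal proteins, DNA replication factors and both N-myristoyltransferases were among the second. Of the 145 genes, 137 had effects of opposite sign in the tissues, with medians of 0.38 in liver and -0.88 in MEFs. Of the 94 genes, 89 had opposite signs, with medians of -0.28 and 0.51. Such a test passes most readily where 2 effects point in opposite directions, and the MEF effect was the larger of the 2 in size in 120 of the 145 genes and 80 of the 94. In 79 of the 145 the genotypes did not overlap in either tissue, in 59 in MEFs only and in 7 in liver only, and for the 94 these numbers were 78, 15 and 1. Over all 10818 members the MEFs did not overlap in 1916 genes lower in G2A and 2100 higher. The livers did not overlap in 1288 genes higher in G2A and 1812 lower. The called genes were chosen for their differences in the same libraries, so such separation was likely in advance and lends no support. Of the 141 members that reached a minimum in 1 genotype only, 6 passed: C3ar1, Cox6a2, Elovl7, Irx5, Scube3 and Snord53. These had to differ in that tissue, and their calls support nothing.

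**Figure D1:**
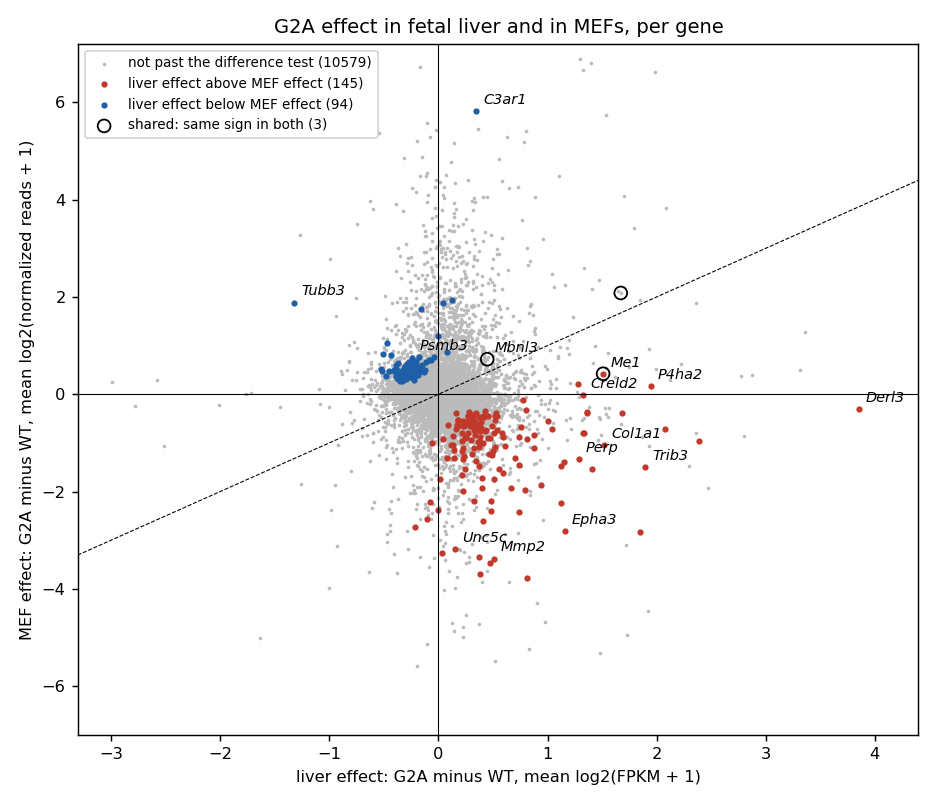
Each point is a gene; the horizontal axis is the G2A effect in liver and the vertical axis that in MEFs, both as a difference of mean log2(value + 1), with equal effects on the dashed line. The 145 genes whose liver effect lay above the MEF effect (red) mostly sit at the lower right, the 94 with it below (blue) at the upper left, and the 3 shared genes (rings) at the upper right; 8 genes lie outside the axes.

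Across all members the 2 effects ran in opposite directions more often than in the same one. The signs were opposite in 6556 of 10818 genes (60.6%). Of these, 3293 were higher in G2A liver and lower in G2A MEFs and 3263 the reverse. The liver effect lay above 0 in 5699 genes (52.7%) and the MEF effect in 5669 (52.4%). The counts given below for each list are to be read beside these numbers. The correlation across genes was r = -0.037 (Pearson) and -0.221 (Spearman), and without WT MEF 3 it was 0.017 and -0.133. These describe the 10818 genes of 11 libraries, and genes are not independent replicates. With an unadjusted p under 0.05 in each tissue, 400 genes (3.70%) had opposite signs and 72 (0.666%) the same sign. Of the 400, 163 were higher in G2A liver and lower in G2A MEFs, and 237 the reverse. Genotypes that overlapped in neither tissue were found in 380 genes (3.51%) higher in G2A liver and lower in G2A MEFs, in 659 (6.09%) lower in G2A liver and higher in G2A MEFs, in 152 higher in both and in 101 lower in both.

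Few genes passed within a tissue. Within the whole liver data 3 of 12938 genes passed (0.0232%; 2771 at an unadjusted p under 0.05). Over the whole MEF data 0 of 13241 passed (0%; limma, 1903 at an unadjusted p under 0.05), and edgeR on the whole reads also gave 0 (1844 unadjusted), while DESeq2 gave 391 higher and 644 lower. Effects varied more in MEFs (SD across genes 0.78, median SE 0.198) than in liver (0.32 and 0.101). The numbers of differing effects turned on single libraries. Without G2A MEF 1, or without G2A MEF 2, 2 genes passed above and 0 below, with the 1 remaining G2A MEF assumed to vary like the other libraries. Without WT MEF 1 there were 12 and 0, without WT MEF 2 216 and 283, and without WT MEF 3 1586 and 1676, which held all 145 and all 94. Without G2A liver 1, 2 and 3 in turn there were 30 and 14, 27 and 6, and 555 and 401, and without WT liver 2 and 3, 43 and 16, and 24 and 6. In each of these fits every one of the 145 and 94 genes still tested kept the sign of its difference. These genes were chosen for their differences in the same libraries, so the kept signs lend no support.

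Transcript length moved with the difference. The 145 genes with the liver effect above had a median transcript of 4240 bases (quartiles 2612 and 6300), the 94 below of 1848.5 (1288.75 and 2875) and all members with a length, 10463 of them, of 3060 (1968 and 4499). Members were split by length into 5 bins of equal number. From the shortest to the longest bin the median liver effect went from -0.09 to 0.11 and the median MEF effect from 0.15 to -0.13. The longest bin held 58 of the genes above and 1 of those below, and the shortest held 17 and 40. With the trend on length and GC content removed from each library, an alternative added after the data were seen, 103 genes stood above and 34 below, of which 94 and 30 were among the 145 and 94. The part of length in the calls was not otherwise tested.

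**Figure D2:**
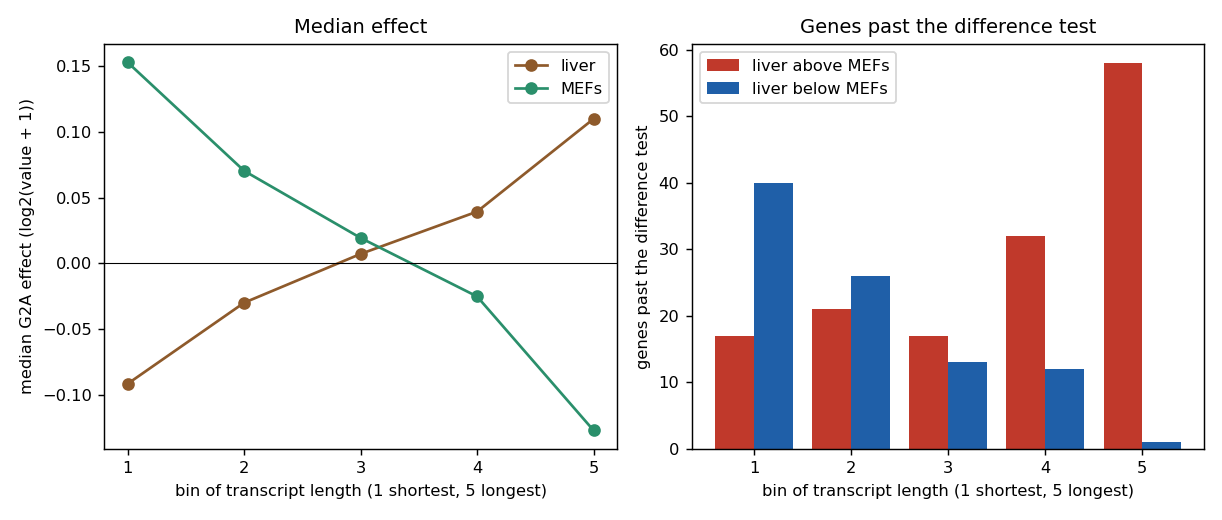
Members with a transcript length are split into 5 bins of equal number, from shortest (1) to longest (5). At left, the median G2A effect goes up with length in liver (-0.09 to 0.11) and down in MEFs (0.15 to -0.13); at right, bars count the genes past the difference test, with 58 above and 1 below in the longest bin.

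Proteasome subunit mRNAs stood lower in G2A liver and higher in G2A MEFs. All 33 members of the list had a liver effect below 0 and a MEF effect above 0, with medians of -0.21 and 0.38, where the medians over all members were 0.01 and 0.02. In 21 of the 33 the genotypes overlapped in neither tissue. The difference of effects had a median of -0.59, and 7 passed the test, all below: the core particle subunits Psma3, Psma5 and Psmb3, the ATPases Psmc2 and Psmc5, and the lid subunits Psmd3 and Psmd12. The mean of the 33 in each library lay at -0.22, -0.25 and -0.11 against the WT mean in the G2A livers and at 0.37 and 0.41 in the G2A MEFs, and the WT libraries of both tissues stayed between -0.09 and 0.12. Against WT MEF 3 alone the median MEF effect was 0.47, and without the trend on length and GC content the median difference was -0.415.

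Psmc1, the gene that carries the allele, stood at 178, 181 and 178 FPKM in WT liver and 151, 145 and 161 in G2A liver. In MEFs it stood at 7393, 8589 and 6485 normalized reads in WT and 10658 and 10913 in G2A MEFs. The genotypes overlapped in neither tissue, with the G2A livers low and the G2A MEFs high, and the effects of -0.23 (SE 0.06) in liver and 0.54 (SE 0.15) in MEFs differed by -0.77 without passing (adjusted p = 0.0592). The values are of the whole gene and do not read the edited codon. Psmb3, a subunit of the beta ring, had the largest difference of the list. It stood at 306, 298 and 295 FPKM in WT liver and 248, 241 and 274 in G2A liver, and at 4298, 4891 and 5463 normalized reads in WT and 8114 and 8274 in G2A MEFs. Its effects were -0.24 (SE 0.06) in liver and 0.75 (SE 0.13) in MEFs, a difference of -0.99 (SE 0.15, adjusted p = 0.0337), with no overlap in either tissue. Psmc2, which encodes the ATPase Rpt1, stood at 129, 133 and 134 FPKM in WT liver and 107, 108 and 127 in G2A liver, and at 7218, 7909.6 and 8390.5 normalized reads in WT and 11677 and 11971 in G2A MEFs. All 3 G2A livers lay under every WT liver and both G2A MEFs above every WT MEF. Its effects differed by -0.81 (adjusted p = 0.0337). Of the other members that passed, Psmd12 differed by -0.78, Psmd3 by -0.77, Psmc5 by -0.77, Psma5 by -0.66 and Psma3 by -0.59. In Psmd3 the livers overlapped, with G2A liver 3 at 129.95 FPKM against WT livers from 126.

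Among 16 measured proteasome assembly factors and activators, 1 passed, Psmd9, which encodes the assembly chaperone p27. It stood at 23.3, 23.2 and 26 FPKM in WT liver and 21.1, 21.3 and 20.7 in G2A liver, and at 1652, 1636 and 1674 normalized reads in WT and 2215 and 2117 in G2A MEFs. The genotypes did not overlap in either tissue, and the effects of -0.19 (SE 0.07) in liver and 0.39 (SE 0.10) in MEFs differed by -0.58 (adjusted p = 0.047). The list's medians were -0.19 in liver and 0.14 in MEFs, with 9 of 16 lower in liver and higher in MEFs and 2 the reverse.

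The enzymes that act on the N terminus followed the same order. Nmt1 and Nmt2 encode the N-myristoyltransferases, and Metap1 and Metap2 the methionine aminopeptidases that expose the glycine. All 4 had a liver effect below 0 and a MEF effect above 0, and both Nmt genes passed. Nmt2 stood at 15.5, 16.7 and 15.7 FPKM in WT liver and 14.5, 14.9 and 16 in G2A liver. Its MEF values were 4268, 4433 and 4883 normalized reads in WT and 7287 and 7347 in G2A MEFs. The livers overlapped and the MEFs did not, and the effects were -0.07 (SE 0.07) in liver and 0.69 (SE 0.11) in MEFs, a difference of -0.77 (SE 0.13, adjusted p = 0.0337). Nmt1 stood at 89.6, 85.7 and 95.5 FPKM in WT liver and 75.7, 79.1 and 86.8 in G2A liver, and at 4273, 5061 and 4887 normalized reads in WT and 6968 and 6909 in G2A MEFs. Here too only the MEFs separated, and the effects of -0.16 and 0.55 differed by -0.72 (adjusted p = 0.0399). Against WT MEF 3 alone the MEF effects were 0.58 for Nmt2 and 0.51 for Nmt1. Of 7 myristoylated kinases and MARCKS proteins 1 passed, Marcks, a myristoylated protein that binds actin and membrane phospholipids. It stood at 15644, 11914 and 13513 normalized reads in WT and 4575 and 5281 in G2A MEFs, with no overlap, and at 69.6, 53.5 and 60.4 FPKM in WT liver and 90, 95.5 and 57.4 in G2A liver, where G2A liver 3 lay among the WT livers. Its effects of 0.37 and -1.47 differed by 1.84 (adjusted p = 0.0144). The list's medians were 0.17 in liver and 0.18 in MEFs (0.40 against WT MEF 3 alone).

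**Figure D3:**
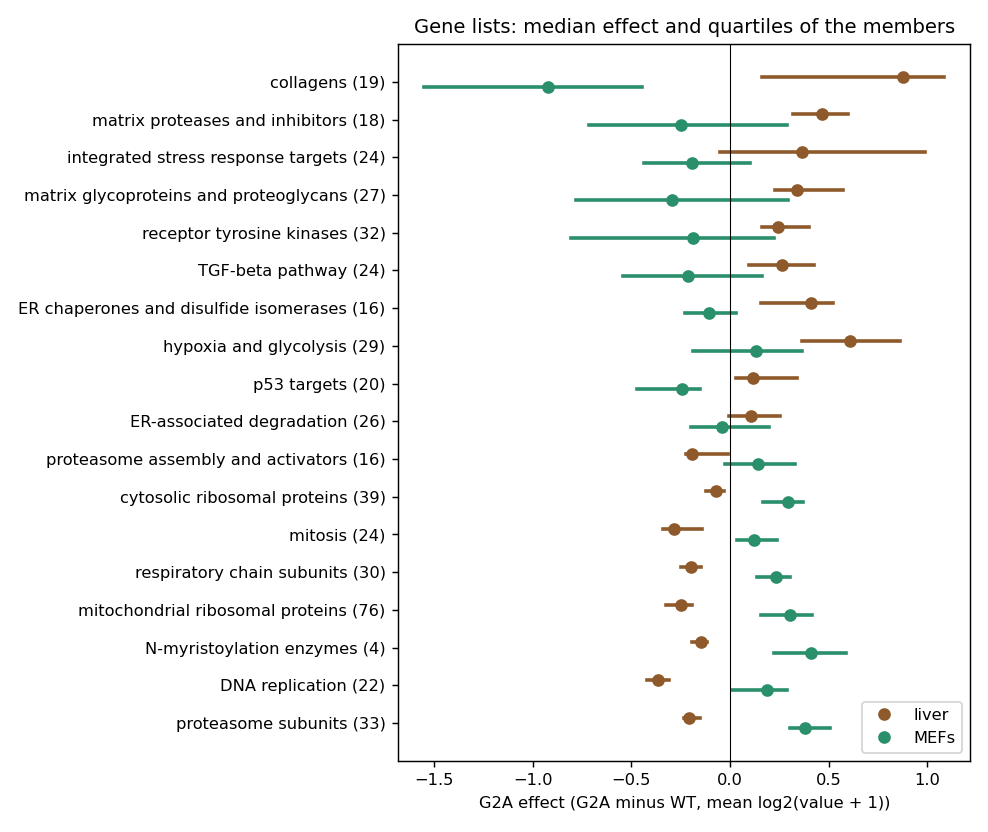
For each gene list (number of measured members in brackets) the points give the median G2A effect in liver (brown) and MEFs (green) and the lines the quartiles of the members, as differences of mean log2(value + 1). Lists are ordered by their median difference, from proteasome subunits (-0.59, bottom) to collagens (1.73, top); in the lowest of them the green points lie right of the brown ones and in the highest left.

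In liver the genes of protein folding in the ER, and many of disposal, went the other way, and in MEFs part of them did. Derl3, a derlin of ER-associated degradation (ERAD), the route that returns misfolded proteins from the ER to the proteasome, stood at 0.725, 0.804 and 1.59 FPKM in WT liver and 22.1, 37.8 and 26 in G2A liver. The MEFs gave 26.8, 26.1 and 17.9 normalized reads in WT and 14.8 and 23.5 in G2A MEFs. Every G2A liver lay above every WT liver and the MEFs overlapped. Its effects were 3.85 (SE 0.24) in liver and -0.30 (SE 0.54) in MEFs, a difference of 4.15 (SE 0.59, adjusted p = 0.0337), and it was 1 of 2 members past the liver test alone (adjusted p = 0.0106), the other being the small RNA gene Snord53. The MEF effect of Derl3 against WT MEF 3 alone was 0.06. Among the WT livers only WT liver 3, at 1.59 FPKM, reached the liver minimum. Derl3 therefore became a member through its G2A livers, so a high G2A value was favoured in advance and its calls lend no support. Sel1l, the adaptor of the ERAD ubiquitin ligase, stood at 17.9, 18.2 and 17.7 FPKM in WT liver and 25.3, 30.8 and 23.1 in G2A liver, and at 5754, 5025 and 5653 normalized reads in WT and 4189 and 4191 in G2A MEFs. Its genotypes overlapped in neither tissue, and its effects of 0.53 and -0.38 differed by 0.91 (adjusted p = 0.0297). Of 26 ERAD genes these 2 passed above and 1 below, Nploc4, a cofactor of the segregase p97, with effects of -0.12 and 0.50. The list's median effects were 0.10 and -0.04, with 12 of 26 higher in G2A liver and lower in G2A MEFs and 6 the reverse.

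Of 16 ER chaperones and disulfide isomerases, all had a liver effect above 0 and 11 a MEF effect below 0, with medians of 0.41 and -0.11. The 3 that passed lay above. Creld2, a disulfide isomerase-like ER protein, stood at 32.3, 39.5 and 35 FPKM in WT liver and 79.8, 113 and 82.1 in G2A liver, and at 1917, 2137 and 1832 normalized reads in WT and 2033 and 1825 in G2A MEFs. The livers separated and the MEFs did not, and the effects of 1.32 (SE 0.15) in liver and -0.02 (SE 0.12) in MEFs differed by 1.35 (adjusted p = 0.0145). Hspa5, the main ER chaperone BiP, stood at 334, 332 and 336 FPKM in WT liver and 438, 512 and 432 in G2A liver. In MEFs it stood at 34668, 33677 and 35038 normalized reads in WT and 26380 and 23884 in G2A MEFs. Its genotypes overlapped in neither tissue, with G2A high in liver and low in MEFs, and its effects of 0.46 (SE 0.08) in liver and -0.46 (SE 0.13) in MEFs differed by 0.92 (adjusted p = 0.035). Pdia4, a protein disulfide isomerase, stood at 96.3, 91.4 and 95.6 FPKM in WT liver and 153, 193 and 146 in G2A liver, and at 7969, 7908 and 6646 normalized reads in WT and 6636 and 7152 in G2A MEFs. The livers separated and the MEFs overlapped, and the effects of 0.78 and -0.12 differed by 0.90 (adjusted p = 0.035). Against WT MEF 3 alone the list's median MEF effect was 0.09, and those of Creld2 and Pdia4 were 0.07 and 0.05, while that of Hspa5 was -0.48. None of 12 sensors and transcription factors of the unfolded protein response passed (medians 0.19 and -0.23, and -0.15 in MEFs against WT MEF 3 alone).

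As background, ATF6 and XBP1 act through the ER stress response element, whose core is CCAAT and CCACG with any 9 bases between them. This motif, on either strand, stood in the promoter window (250 bases before to 50 after the start, RefSeq, GRCm38.p6) of 37 of 27025 genes (0.137%) and of 15 of the 8268 members with an entry (0.181%). It stood in 7 of 13 ER chaperones with an entry, 2 of 19 ERAD genes, 0 of 26 proteasome subunits and 3 of 105 genes whose liver effect lay above the MEF effect. Those 3 were Hspa5, Creld2 and Derl3, and their windows are shown with the match in capitals. In Hspa5 it spans 65 to 47 bases before the start, in Creld2 126 to 108 and in Derl3 156 to 138, the last 2 on the opposite strand. The letters alone do not show that a factor binds.
Hspa5, chr2:34771840-34772139, plus strand: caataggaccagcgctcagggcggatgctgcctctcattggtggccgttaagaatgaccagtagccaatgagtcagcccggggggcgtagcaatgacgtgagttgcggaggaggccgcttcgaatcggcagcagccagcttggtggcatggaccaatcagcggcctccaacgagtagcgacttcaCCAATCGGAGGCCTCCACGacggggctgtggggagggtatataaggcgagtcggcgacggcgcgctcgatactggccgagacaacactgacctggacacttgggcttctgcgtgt
Creld2, chr15:88819396-88819695, plus strand: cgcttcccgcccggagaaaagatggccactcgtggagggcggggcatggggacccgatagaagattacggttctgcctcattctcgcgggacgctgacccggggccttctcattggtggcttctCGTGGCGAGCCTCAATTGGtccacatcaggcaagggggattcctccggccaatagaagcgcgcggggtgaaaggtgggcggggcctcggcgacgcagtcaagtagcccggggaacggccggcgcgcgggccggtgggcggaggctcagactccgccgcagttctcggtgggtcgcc
Derl3, chr10:75893148-75893447, plus strand: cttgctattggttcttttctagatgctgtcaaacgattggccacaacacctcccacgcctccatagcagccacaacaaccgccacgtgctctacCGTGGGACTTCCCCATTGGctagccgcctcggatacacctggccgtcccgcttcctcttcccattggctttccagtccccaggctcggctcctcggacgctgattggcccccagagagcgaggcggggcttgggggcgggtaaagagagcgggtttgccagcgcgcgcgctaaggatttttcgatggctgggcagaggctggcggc

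**Figure D4:**
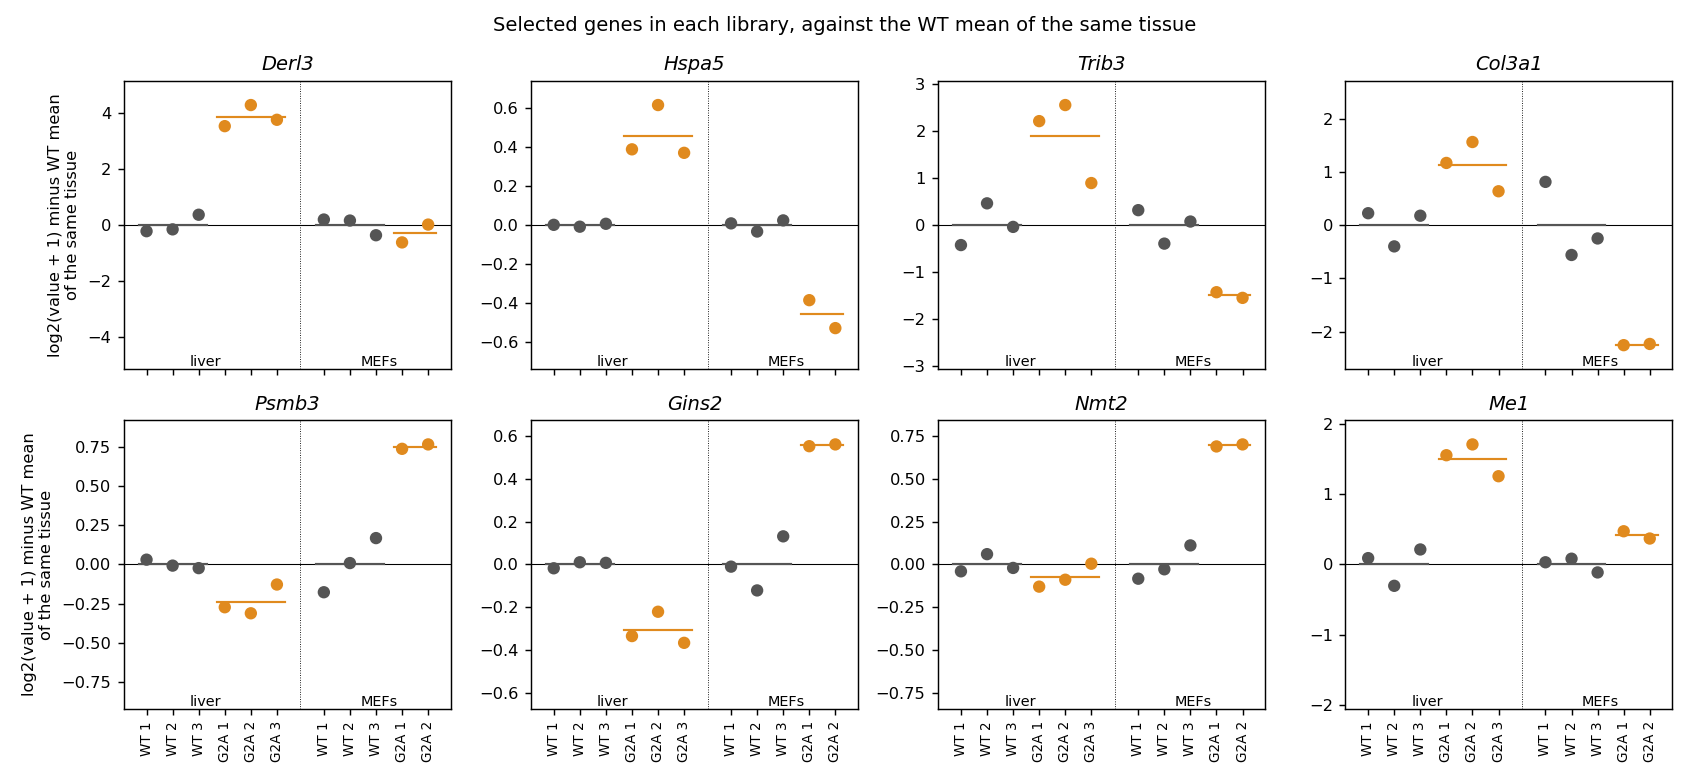
Each point is a library, as log2(value + 1) minus the WT mean of its tissue, with WT in grey, G2A in orange and group means as lines; the vertical scale differs between genes. Hspa5, Trib3 and Col3a1 are high in the G2A livers and low in the G2A MEFs, Psmb3 and Gins2 the reverse, Derl3 departs in liver only, Nmt2 in MEFs, and Me1 is high in both.

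Targets of the integrated stress response, the programme that ATF4 drives when translation initiation is limited, had medians of 0.37 in liver and -0.19 in MEFs over 24 genes, with 12 higher in G2A liver and lower in G2A MEFs and 5 the reverse. Trib3 and Atf5 passed, both above. Trib3, a pseudokinase induced by ATF4, stood at 2.98, 6.38 and 4.21 FPKM in WT liver and 23.9, 30.5 and 8.96 in G2A liver. Its MEF values were 1418, 864 and 1198 normalized reads in WT and 421 and 387 in G2A MEFs. The genotypes overlapped in neither tissue, although G2A liver 3 lay close to WT liver 2, and the effects of 1.89 (SE 0.46) in liver and -1.49 (SE 0.24) in MEFs differed by 3.38 (SE 0.52, adjusted p = 0.032). Atf5, a transcription factor of the response, stood at 39.7, 35 and 38.4 FPKM in WT liver and 44.5, 56.4 and 60.8 in G2A liver, and at 4562, 2851 and 3559 normalized reads in WT and 1625 and 1404 in G2A MEFs. Its groups were separate in both, and its effects of 0.49 and -1.25 differed by 1.74 (adjusted p = 0.032). Ddit3, which encodes CHOP, was ordered alike, with effects of 0.75 and -1.0 (-1.65 against WT MEF 3 alone), and did not pass (adjusted p = 0.0699). With the stricter minimums the list's median difference was 0.325 in place of 0.63. The composite element of these targets, TGATG, any base and AA on either strand, stood in 7 of 22 list members with a promoter entry, Trib3 among them. It stood in 4.5% of all genes with an entry and in 2.54% of the 8268 members with one. Of the genes past the difference test with an entry, 5 of 105 above (4.76%) and 1 of 76 below (1.32%) held it.

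Of 20 targets of p53, 14 were higher in G2A liver and lower in G2A MEFs and none the reverse (medians 0.12 and -0.24, and -0.52 in MEFs against WT MEF 3 alone), and 2 passed. Perp, a membrane protein of cell junctions and apoptosis, stood at 3.83, 4.9 and 5.06 FPKM in WT liver and 11.6, 16.1 and 10.7 in G2A liver, and at 221, 329 and 232 normalized reads in WT and 87.8 and 118 in G2A MEFs. Fas, the death receptor, stood at 0.823, 1.02 and 1.54 FPKM in WT liver and 3.14, 5.27 and 2.72 in G2A liver, and at 223, 169 and 324 normalized reads in WT and 68 and 99 in G2A MEFs. In both genes the genotypes overlapped in neither tissue. The effects of Perp were 1.29 and -1.33, and those of Fas 1.12 and -1.48 (-1.97 against WT MEF 3 alone), with differences of 2.61 (adjusted p = 0.0283) and 2.60 (adjusted p = 0.0352). Perp is also an epithelial gene, and all 10 epithelial markers had a liver effect above 0 (summed level 54.9 to 82.5 FPKM in WT and 65.0 to 254.8 in G2A livers). In MEFs 2 of 4 tested lay below 0 and 2 above (median -0.11, and -0.89 against WT MEF 3 alone). The sums were 1476 to 2122 normalized reads in WT and 3398 to 3549 in G2A. Their part in the value of Perp was not tested.

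Hypoxia and glycolysis genes had higher liver effects without an opposite MEF effect as a list. Of 29 members, 18 had effects above 0 in both tissues and 10 were higher in liver and lower in MEFs, with medians of 0.61 and 0.13 (0.42 in MEFs against WT MEF 3 and -0.04 against WT MEF 1 and 2), and 4 passed above. Vegfa, the endothelial growth factor, stood at 24.3, 24.7 and 21.2 FPKM in WT liver and 41.8, 52.6 and 32.5 in G2A liver, and at 1845, 1733 and 1928 normalized reads in WT and 1415 and 1504 in G2A MEFs, with no overlap in either tissue. Its effects were 0.80 and -0.33, a difference of 1.13 (adjusted p = 0.0349). P4ha2, a subunit of the prolyl hydroxylase that stabilises collagen, stood at 7.17, 6.22 and 7.29 FPKM in WT liver and 29.2, 47.7 and 18 in G2A liver, and at 1863, 1548 and 1982 normalized reads in WT and 2012 and 1989 in G2A MEFs. Its G2A values lay above WT in both tissues, by 1.94 in liver and 0.16 in MEFs, and it passed on the difference in size, 1.78 (adjusted p = 0.0456). Its MEF effect against WT MEF 3 alone was 0.01. The paralog P4ha1 had effects of 1.0 and -0.56, and Bnip3, a mitophagy receptor, of 1.36 and -0.38. Against WT MEF 3 alone these 2 MEF effects were -0.13 and 0.05.

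Genes of cell growth and division were lower in G2A liver and mostly higher in G2A MEFs. Of 22 DNA replication genes, 18 had that pattern and 10 of them did so without overlap in either tissue. The medians were -0.36 and 0.19, and 4 passed, all below. Gins2, a subunit of the replicative helicase, stood at 57.1, 58.3 and 58.2 FPKM in WT liver and 45.6, 49.5 and 44.6 in G2A liver. The MEFs gave 2102, 1946 and 2319 normalized reads in WT and 3108 and 3126 in G2A MEFs. The groups were separate in both tissues, and the effects of -0.31 (SE 0.06) in liver and 0.56 (SE 0.12) in MEFs differed by -0.87 (SE 0.13, adjusted p = 0.0338). Mcm7, of the helicase ring, stood at 203, 228 and 214 FPKM in WT liver and 162, 154 and 185 in G2A liver, and at 11274, 11060.1 and 12228 normalized reads in WT and 15123 and 13634 in G2A MEFs. It too was separate in both, with a difference of -0.68 (adjusted p = 0.0456). Cdc6, a licensing factor, differed by -0.77 and Tyms, thymidylate synthase, by -0.66. Of 24 mitosis genes 21 had the pattern and none passed (medians -0.28 and 0.12). Against WT MEF 3 alone the MEF median of the mitosis list was 0.70 and against WT MEF 1 and 2 it was -0.08, so the sign changed without that library.

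Beside the replication genes, 12 of 16 erythroid markers had a liver effect below 0, among them Gata1, the master factor of red cells, at 129.6, 130.8 and 140.6 FPKM in WT and 79.6, 73.6 and 123.1 in G2A livers. Their summed level was 34452 to 39781 FPKM in WT and 43717 to 78414 in G2A livers, a sum to which the embryonic globin Hbb-y gave 9121 to 15060 and 14088 to 37646 FPKM. In MEFs Gata1 was at 0 in every library, as were 8 of 19 erythroid markers with it included. Of the 5 tested there, 3 had an effect above 0 and 2 below, with a median of 0.06. Their list summed to 6665 to 7967 normalized reads in WT and 7689 to 8113 in G2A MEFs. The part of the blood lineage in the liver effects was not tested.

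Mitochondrial ribosomal proteins, a list added after the values were seen, gave 9 of 76 members below and none above. The pattern of lower in G2A liver and higher in G2A MEFs held in 72 of 76, and in 38 the genotypes overlapped in neither tissue. The medians were -0.25 and 0.30. Mrpl33, of the large subunit, stood at 128, 133 and 129 FPKM in WT liver and 96, 98.7 and 106 in G2A liver, and at 1037, 1077 and 908 normalized reads in WT and 1554 and 1594 in G2A MEFs. Mrps7, of the small subunit, stood at 61.7, 68 and 66.9 FPKM in WT liver and 52.1, 50.4 and 57.9 in G2A liver, and at 2093, 2411 and 2315 normalized reads in WT and 3454 and 3483 in G2A MEFs. Both were separate in each tissue, with differences of -1.02 (adjusted p = 0.0337) and -0.90 (adjusted p = 0.0283), and Mrps24 differed by -0.85. Of 30 respiratory chain subunits 28 had the same pattern and none passed (medians -0.20 and 0.23). Cytosolic ribosomal proteins had it in 35 of 39, with medians of -0.07 and 0.29 and none past the test. These transcripts are short: without the trend on length and GC content the median differences were -0.355 for the mitochondrial ribosome, -0.172 for the respiratory chain and -0.0664 for the cytosolic ribosome, from -0.52, -0.41 and -0.38.

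Collagens had the largest median difference, 1.73, of the lists plotted. Of 19 chains, 15 were higher in G2A liver and lower in G2A MEFs, 10 of them without overlap in either tissue, and 8 passed, all above: Col1a1, Col1a2, Col3a1, Col4a5, Col5a1, Col6a1, Col6a2 and Col6a3. The medians were 0.88 in liver and -0.92 in MEFs. Col3a1, the chain of type III collagen, stood at 174, 113 and 168 FPKM in WT liver and 336, 441 and 232 in G2A liver. In MEFs it stood at 78884, 30457 and 37765 normalized reads in WT and 9414 and 9562 in G2A MEFs. The groups were separate in both tissues, with effects of 1.12 (SE 0.27) in liver and -2.24 (SE 0.42) in MEFs and a difference of 3.36 (SE 0.50, adjusted p = 0.0297). Col1a1, the main chain of type I collagen, stood at 164, 118 and 177 FPKM in WT liver and 405, 669 and 299 in G2A liver, and at 367214, 303500 and 251319 normalized reads in WT and 147919 and 147435 in G2A MEFs. It was separate in both, with effects of 1.51 and -1.04 and a difference of 2.56 (adjusted p = 0.0337). The 3 main chains of type VI collagen all passed: Col6a1 differed by 1.73, Col6a2 by 1.63 and Col6a3 by 2.81. The MEF effects against WT MEF 3 alone were -1.99 for Col3a1, -0.77 for Col1a1, -1.26 for Col6a3 and -0.59 for Col6a2, from -0.89 for Col6a2 over all WT MEFs.

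Matrix proteases were led by Mmp2, the gelatinase that cleaves type IV collagen, which had the smallest adjusted p of the genes with the liver effect above. It stood at 4256, 3359 and 2654 normalized reads in WT and 343 and 302 in G2A MEFs. In liver it stood at 45.7, 25.9 and 30 FPKM in WT liver and 56.5, 52.6 and 35.1 in G2A liver. Both G2A MEFs lay far under every WT MEF, and the livers overlapped. Its effects were 0.51 (SE 0.26) in liver and -3.38 (SE 0.22) in MEFs, a difference of 3.88 (SE 0.34, adjusted p = 0.0013). Mmp14, the membrane protease that activates it, had effects of 0.38 and -0.76 and a difference of 1.14 (adjusted p = 0.0455). These were 2 of 18 proteases and inhibitors (medians 0.47 and -0.25). The MEF effect of Mmp14 against WT MEF 3 alone was -0.44, and the list's MEF median -0.45. Of 27 matrix glycoproteins and proteoglycans 1 passed, Nid2, a basement membrane protein, with effects of 0.58 and -0.79. The list's medians were 0.34 and -0.30 (-0.67 in MEFs against WT MEF 3 alone), and 16 members were higher in liver and lower in MEFs.

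Beside these genes, mesenchyme and mesothelium markers mostly had higher values in G2A liver, with less order in MEFs. In liver 11 of 14 had an effect above 0, where 5699 of 10818 did over all members. Their summed level was 449 to 594 FPKM in WT and 685 to 1349 in G2A livers. In MEFs 7 of 12 tested had an effect below 0 and 5 above, where 5149 of 10818 lay below 0 over all members. Their median was -0.21, with -0.79 against WT MEF 3 alone and -0.37 against WT MEF 1 and 2. The sum was 415288 to 654371 normalized reads in WT and 321953 to 342095 in G2A. Thy1 and Vim, markers of fibroblasts, were present in every MEF library, at 9420.12 to 11879.5 and at 92478 to 228152 normalized reads, while Prrx1 stood at 16041, 11652 and 12654 in WT and 6748 and 7677 in G2A MEFs. Part of both sums is Col1a1 itself, which gave a large share of the sum in every MEF library. The MEF sums are therefore not separate from the collagen values above, and sums without Col1a1 are not given. The part of the number of mesenchymal cells in the liver values was not tested.

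**Figure D5:**
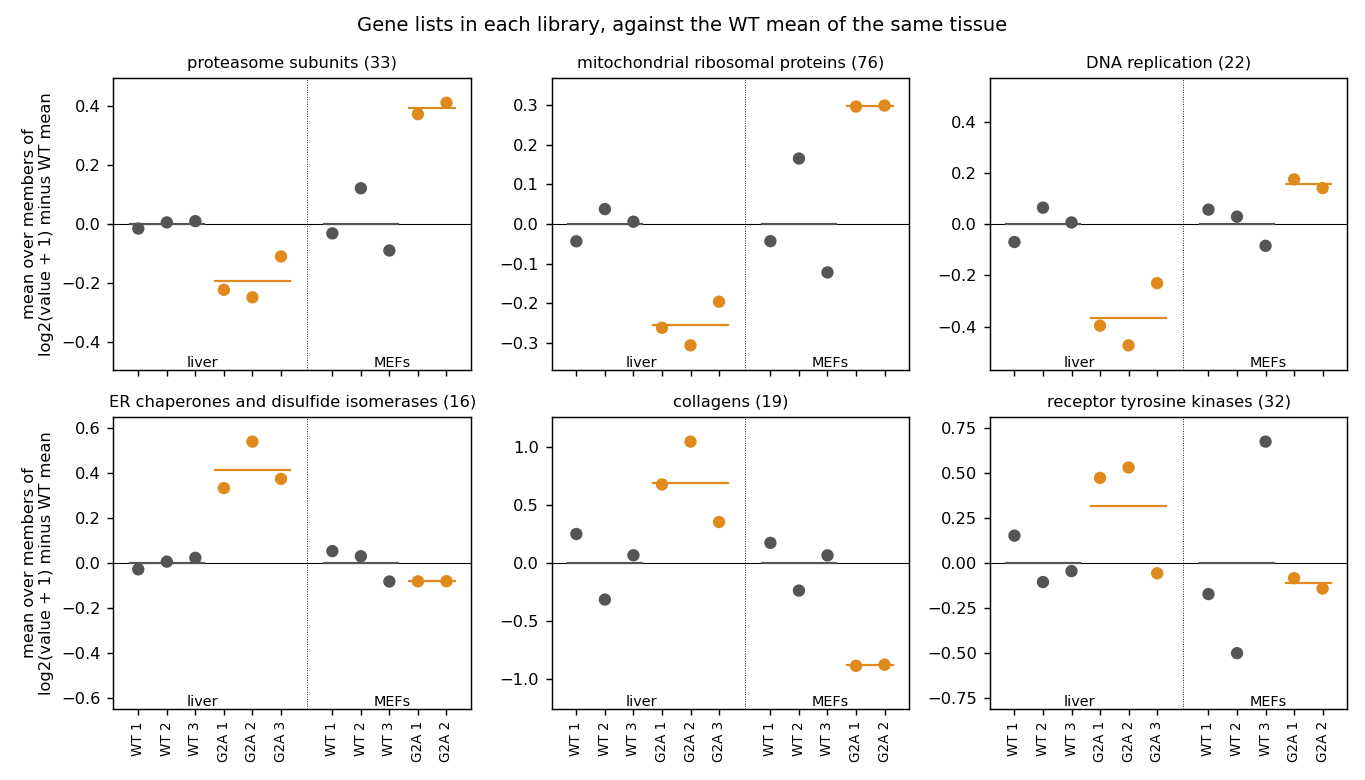
Each point is a library and gives the mean over a list's members of log2(value + 1) minus the WT mean of the tissue; WT is grey, G2A orange, lines are group means and the vertical scale differs between lists. Proteasome subunits lie at -0.25 to -0.11 in the G2A livers and at 0.37 and 0.41 in the G2A MEFs, collagens at 0.35 to 1.04 and at -0.89 and -0.88, and WT MEF 3 (0.67) sets the WT spread of the receptor tyrosine kinases.

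Growth factors and their receptors also had genes past the test. In the TGF-beta pathway 3 of 24 genes passed, all above (medians 0.26 and -0.21, and -0.46 in MEFs against WT MEF 3 alone). Tgfb2, a ligand of the pathway, stood at 3592, 2867 and 3031 normalized reads in WT and 816 and 828 in G2A MEFs, and at 12.1, 9.39 and 10.4 FPKM in WT liver and 19.9, 21.7 and 12 in G2A liver. The MEFs were separate and the livers overlapped by G2A liver 3, and the effects of 0.66 (SE 0.22) in liver and -1.94 (SE 0.14) in MEFs differed by 2.60 (SE 0.26, adjusted p = 0.00368). Bmp4, a ligand of the BMP branch, had effects of 0.74 and -2.41, with MEF values of 2869.7, 2406 and 1382 in WT and 490.1 and 323 in G2A, and a MEF effect of -1.80 against WT MEF 3 alone. Bmpr2, its receptor, had effects of 0.42 and -0.35 and was separate in both tissues. Of 32 receptor tyrosine kinases, all had a liver effect above 0 and 21 a MEF effect below 0, with medians of 0.24 and -0.19, and 5 passed, all above. The MEF median rested on WT MEF 3: it was -0.65 against that library and -0.04 against WT MEF 1 and 2, and the median difference of 0.52 was 0.31 without it. Epha3, an ephrin receptor, stood at 3.01, 1.9 and 3.15 FPKM in WT liver and 9.34, 7.02 and 5.48 in G2A liver, and at 198, 170.2 and 173 normalized reads in WT and 18.7 and 32.4 in G2A MEFs. It was separate in both tissues, and its effects of 1.16 (SE 0.22) in liver and -2.82 (SE 0.37) in MEFs differed by 3.98 (adjusted p = 0.0105). Flt1, a VEGF receptor, was separate in both, with a difference of 2.2, and Fgfr2, Pdgfrb and Ddr2, receptors for fibroblast growth factors, platelet-derived growth factor and collagen, differed by 2.12, 1.45 and 1.42. In these last 3 the livers overlapped through G2A liver 3.

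Flt1 is also an endothelial marker, and in liver 11 of 12 endothelial markers had an effect above 0 (summed level 135 to 149.8 FPKM in WT and 158 to 174 in G2A). In MEFs 5 of 6 markers tested, Flt1 among them, had an effect below 0 (median -1.37), 3 of 12 were at 0 in every library, and the sum was 728 to 1282 normalized reads in WT and 327 to 443 in G2A. Of the defining markers, Pecam1 was at or near 0, at 3.09 or less in every library, while Cdh5 stood at 2.06, 6.26 and 0 in WT and 32.5 and 15.7 in G2A MEFs. The part of endothelium in the values of Flt1 was not tested. Angpt1, a ligand of vessel growth, stood at 912, 329 and 269 normalized reads in WT and 41.4 and 25.5 in G2A MEFs, with WT MEF 1 high among the WT, and at 5.98, 4.58 and 4.09 FPKM in WT liver and 7.56, 6.04 and 6.3 in G2A liver. Its groups were separate in both, with effects of 0.38 and -3.69 and a difference of 4.08 (adjusted p = 0.0446).

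In other genes with the liver effect above, the MEF effect was the larger of both in size. Unc5c, a netrin receptor of axon guidance, stood at 3985, 2468 and 2468 normalized reads in WT and 294 and 342 in G2A MEFs, and at 6.02, 3.89 and 3.62 FPKM in WT liver and 6.17, 6.09 and 3.3 in G2A liver. The MEFs were separate and the livers overlapped, and the effects of 0.15 and -3.19 differed by 3.34 (adjusted p = 0.00368). Ednrb, the endothelin B receptor, stood at 890.3, 699 and 804 normalized reads in WT and 159 and 184 in G2A MEFs, with a liver effect of -0.07 and a difference of 2.14 (adjusted p = 0.00956). Fat4, a giant cadherin of planar polarity, had effects of 0.38 and -3.35. Plagl1, an imprinted zinc finger gene, stood at 5068, 3492 and 4675 normalized reads in WT and 1065 and 840.1 in G2A MEFs, and at 118, 107 and 95.9 FPKM in WT liver and 149, 184 and 122 in G2A liver, and was separate in both, with effects of 0.49 and -2.2 (adjusted p of the difference = 0.00368). Ppap2b, a lipid phosphatase, had effects of 0.81 and -3.77, with WT MEF values of 12318, 3385 and 2725 and G2A MEF values of 362 and 347. Its MEF effect against WT MEF 3 alone was -2.94. Scube3, a secreted EGF-domain protein, had effects of 0.47 and -3.46, with 5.92 and 2.94 normalized reads in the G2A MEFs. Cox6a2, the muscle form of a respiratory subunit, had effects of 1.85 and -2.83, with 40.2, 26.1 and 37.6 normalized reads in WT and 3.94 and 3.92 in G2A MEFs. Both reached the MEF minimum in WT libraries only and so had to be low in G2A, their sizes depend on the pseudocount, and their differences are given as a description. Its livers stood at 1.03, 0.25 and 0.51 FPKM in WT and 20, 2.31 and 1.56 in G2A, so that G2A liver 1 was far above the others.

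Among the genes with the liver effect below was C3ar1. This receptor for a complement fragment, a macrophage gene by its usual site, stood at 2.06, 2.09 and 9.4 normalized reads in WT and 243 and 278 in G2A MEFs, and at 1.3, 1.18 and 1.13 FPKM in WT liver and 1.59, 2.37 and 1.51 in G2A liver. Both G2A groups lay above WT, with effects of 0.34 (SE 0.14) in liver and 5.82 (SE 0.74) in MEFs, a difference of -5.48 whose size depends on the pseudocount at the low WT MEF values. It reached the MEF minimum in G2A only and so had to be high there, and the difference is given as a description. The MEF effect against WT MEF 3 alone was 4.65. Of 13 macrophage markers listed for MEFs, 8 were under 10 normalized reads in every library, C1qa at or under 1.88 and Ptprc, a pan-leukocyte gene, at or under 2.06, while Csf1r stood at 9.27, 2.09 and 46.1 in WT and 81.8 and 65.7 in G2A MEFs. Cd68, another of these markers, stood at 93.8, 111 and 416 in WT and 181 and 124 in G2A MEFs, highest in WT MEF 3. The summed level of the list was 231 to 804 in WT and 746 to 788 in G2A MEFs. C3ar1 is itself part of that sum. Tubb3, a neuronal tubulin, stood at 11.7, 6.48 and 5.54 FPKM in WT liver and 3.36, 4.65 and 0.622 in G2A liver, and at 87.6, 223 and 148 normalized reads in WT and 558 and 501 in G2A MEFs. Its groups were separate in both, with effects of -1.32 and 1.88 and a difference of -3.20 (adjusted p = 0.0382). In liver 8 of 9 neural markers tested had an effect below 0, with summed levels of 23.4 to 49.9 FPKM in WT and 3.47 to 22.9 in G2A. In MEFs 3 of 6 tested lay below 0 and 3 above, with sums of 531 to 835 normalized reads in WT and 694 to 736 in G2A. Tubb3 is itself among these markers and is part of the sums in both tissues. In the G2A MEFs, at 558 and 501, it gave most of the sum, so the sums do not show the other markers. The part of neural cells in the value of Tubb3 was not tested. Amacr, Dock8 and Mogat2, a racemase of fatty acid breakdown, a guanine nucleotide exchange factor and an acyltransferase, differed by -1.92, -1.82 and -1.81 through the MEFs, with liver effects of -0.16, 0.05 and 0.13. Txnrd2, the mitochondrial thioredoxin reductase, Nhp2, of the snoRNA particle, and Asf1b, a histone chaperone, were separate in both tissues and differed by -1.52, -1.34 and -1.05. The MEF effect of Asf1b was 0.52, and 0.82 against WT MEF 3 alone.

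Genes that moved the same way in both tissues were few. Asked of the mean of both effects, with the same sign and an unadjusted p under 0.05 in each tissue, 3 genes passed (0.0277%), all higher in G2A, among them Me1 and Mbnl3. None was lower in both (1211 genes had an unadjusted p of the mean under 0.05). With the replicate number as a block in liver and none in MEFs, an alternative added after the data were seen, none was shared, and the adjusted p of the mean was 0.0576 for Me1 and 0.0564 for Mbnl3. Me1, the cytosolic malic enzyme and a target of NRF2, stood at 5.41, 3.88 and 5.99 FPKM in WT liver and 16.7, 18.7 and 13.4 in G2A liver, and at 6463, 6695 and 5845 normalized reads in WT and 8781 and 8172 in G2A MEFs. Every G2A library lay above every WT library of its tissue. Its effects of 1.51 (SE 0.17) in liver and 0.42 (SE 0.11) in MEFs shared a direction (adjusted p of the mean = 0.00651) and also differed in size, by 1.09 (adjusted p = 0.0361). Mbnl3, a splicing regulator, stood at 5.94, 5.79 and 5.5 FPKM in WT liver and 8, 9.72 and 7.06 in G2A liver, and at 889, 989.6 and 946 normalized reads in WT and 1642 and 1465 in G2A MEFs. The groups were separate in both tissues, with effects of 0.45 (SE 0.12) in liver and 0.72 (SE 0.13) in MEFs (adjusted p of the mean = 0.0405), and the MEF effect was 0.71 against WT MEF 3 and 0.72 against WT MEF 1 and 2. The count turned on WT MEF 3: without it 191 genes were shared higher and 130 shared lower.

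Of the 17 NRF2 targets, antioxidant genes, Me1 passed the difference test above and Nqo1 below. Nqo1, a quinone reductase, stood at 14.6, 12.1 and 12.7 FPKM in WT liver and 9.75, 7.62 and 11.3 in G2A liver, and at 989, 918 and 788 normalized reads in WT and 1388 and 1781 in G2A MEFs, with no overlap in either tissue. Its effects of -0.43 and 0.81 differed by -1.24 (adjusted p = 0.035), so 2 targets of 1 factor stood on opposite sides. Slc16a3, a lactate exporter among the hypoxia genes, was separate in both tissues and higher in G2A, with effects of 0.88 and 1.37, and did not pass the test of the mean (adjusted p = 0.17). Stc2, a secreted target of the integrated stress response, had effects of 1.18 and 0.94, and against WT MEF 3 alone its MEF effect was -0.18 (adjusted p of the mean = 0.318).

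Some genes with the widest opposite effects did not pass, and their WT MEFs were widely spread. Fmod, fibromodulin, a collagen-binding proteoglycan, stood at 5.63, 4.99 and 8.06 FPKM in WT liver and 22.9, 29.9 and 16.6 in G2A liver, and at 7524, 6375 and 687 normalized reads in WT and 296 and 466 in G2A MEFs. WT MEF 3 lay near the G2A MEFs, and the effects of 1.72 (SE 0.24) in liver and -3.11 (SE 1.10) in MEFs gave a difference of 4.83 (adjusted p = 0.0818), with a MEF effect of -0.89 against WT MEF 3 alone. Tbx4, a limb and lung transcription factor, stood at 0.234, 0.165 and 0.723 FPKM in WT and 6.01, 5.2 and 2.1 in G2A livers. Its MEF values were 191, 105 and 4.7 normalized reads in WT and 3.94 and 0 in G2A MEFs. WT MEF 3 again lay beside the G2A MEFs (difference 6.38, adjusted p = 0.109). The MEF effect of -4.46 was -1.36 against that library alone. Tbx4 reached the liver minimum in G2A only and the MEF minimum in WT only. It therefore had to be high in G2A liver and low in G2A MEFs, and its effects are given as a description. Htra1, a secreted serine protease, was separate in both and passed, with effects of 1.41 and -1.53 (adjusted p = 0.0382). In the reverse direction Spp1, osteopontin, stood at 8, 3.28 and 7.46 FPKM in WT liver and 2.56, 3.12 and 1.8 in G2A liver, and at 4899.6, 16162 and 2068 normalized reads in WT and 33291 and 42812 in G2A MEFs. Its groups were separate in both, and the difference of -3.78 did not pass (adjusted p = 0.076). Its MEF effect was 2.79, and 4.19 against WT MEF 3 alone.

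The median MEF effect differed in sign against WT MEF 3 and against WT MEF 1 and 2 in 8 of the 34 gene lists other than cell type markers. Besides ER chaperones, hypoxia genes and mitosis genes these were cholesterol synthesis (0.61 and -0.86), imprinted growth genes (-1.43 and 1.28), inflammatory chemokines and cytokines (-0.08 and 0.15), and the lists that follow. The median difference changed sign without WT MEF 3 in 3 lists, the imprinted genes (0.04 to -1.43), the myristoylated kinases and MARCKS proteins (-0.0004 to 0.13) and the interferon genes. The type I interferon genes, 18 of them measured, had a median MEF effect of -1.09, which was -3.51 against WT MEF 3 and 0.11 against WT MEF 1 and 2, and their median difference of 0.90 was -0.28 without that library. Hox genes, 26 measured, had a median MEF effect of 3.58, which was -0.13 against WT MEF 3 and 5.51 against WT MEF 1 and 2, with a median liver effect of 0.10. None of either list passed the difference test.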

How the data were processed

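Total RNA isolated with Trizol was sequenced by BGI, and reads trimmed to 50 bp were mapped to mm9 by TopHat2 2.1.1, as the labels' protocols state. Cufflinks 2.2.1 and mm10 are named too, per the submitters' processing notes. The liver values are FPKM made by the authors, read so from the tool and the values, as no header names a unit. The deposited MEF values are a signal per gene: whole read counts divided by 1 size factor per library (0.958 to 1.06; 100% whole within 0.01), where FPKM had been foreseen. No source used here gives the counting tool, annotation or use of strand, so near-identical or overlapping genes are uncertain. Symbols turned into dates in the MEF table, such as those of the March genes, could not be matched.

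A genotype model of log2(value + 1) was fitted per table in R 4.3.3, using the moderated test of limma 3.58.1 with a variance trend. The difference and the mean of both effects were tested over their combined standard errors (degrees of freedom by Satterthwaite), adjusting by Benjamini-Hochberg over all 10818 genes at 0.05. MEF reads were also fitted with edgeR 4.0.16 and DESeq2 1.42.0, where 615 adjusted p-values were not given and stay missing. The limma steps were tested on simulated data with independent libraries and no split between the WT MEFs. That test cannot show how the calls behave under such a split. Members and lists were chosen with earlier results of these data known. Named genes were Psmc1, Nmt1, Nmt2 and Derl3, the 10 largest differences per direction past the test, the shared genes, the 5 widest opposite effects per pattern and the 3 smallest p-values per list; not all are described, and 1 of the 3 shared genes is not reported here. Lengths are of the longest coding transcript in GENCODE vM1. Alternatives changed the pseudocount, minimums, scaling, variance trend, fit, replicate block, covariates and libraries.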

Additional observations from a re-analysis of the deposited data

Results flagged for a closer look

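The G2A effects in liver and MEFs differed by the test of the difference itself in 145 genes with the liver effect above and 94 with it below. The values here are liver effect minus MEF effect on the log2(value + 1) scale, each past that test (limma effects, Benjamini-Hochberg adjusted p under 0.05 over 10818 genes). No explanation is weighed.

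Among genes of the proteasome and of N-terminal processing the difference was -0.59 for Psma3, -0.66 for Psma5, -0.99 for Psmb3, -0.81 for Psmc2, -0.77 for Psmc5, -0.77 for Psmd3, -0.58 for Psmd9, -0.78 for Psmd12, -0.72 for Nmt1 and -0.77 for Nmt2. In ER folding and degradation the difference was 4.15 for Derl3, 0.91 for Sel1l, -0.62 for Nploc4, 1.35 for Creld2, 0.92 for Hspa5 and 0.9 for Pdia4. Among targets of stress responses the difference was 3.38 for Trib3, 1.74 for Atf5, 2.61 for Perp, 2.6 for Fas, 1.09 for Me1, -1.24 for Nqo1, 1.13 for Vegfa, 1.74 for Bnip3, 1.56 for P4ha1 and 1.78 for P4ha2. In DNA replication and the mitochondrial ribosome the difference was -0.87 for Gins2, -0.66 for Tyms, -0.77 for Cdc6, -0.68 for Mcm7, -0.9 for Mrps7, -1.02 for Mrpl33 and -0.85 for Mrps24. Among collagens, matrix proteins and proteases the difference was 2.56 for Col1a1, 3.36 for Col3a1, 1.73 for Col6a1, 1.63 for Col6a2, 2.81 for Col6a3, 1.37 for Nid2, 3.88 for Mmp2, 1.14 for Mmp14 and 2.94 for Htra1. Among ligands, receptors and guidance genes the difference was 2.6 for Tgfb2, 3.16 for Bmp4, 0.78 for Bmpr2, 3.98 for Epha3, 2.2 for Flt1, 2.12 for Fgfr2, 1.45 for Pdgfrb, 1.42 for Ddr2, 4.08 for Angpt1, 3.34 for Unc5c, 2.14 for Ednrb, 3.93 for Scube3, 3.72 for Fat4 and 1.84 for Marcks. For the remaining named genes it was 2.69 for Plagl1, -5.48 for C3ar1, -3.2 for Tubb3, 4.68 for Cox6a2, 4.58 for Ppap2b, -1.92 for Amacr, -1.82 for Dock8, -1.81 for Mogat2, -1.52 for Txnrd2, -1.34 for Nhp2 and -1.05 for Asf1b. C3ar1, Scube3 and Cox6a2 reached the MEF minimum in 1 genotype only and so had to differ in MEFs. Derl3 became a member through its G2A livers, as WT liver 3 was the only WT liver at the minimum.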

How the results depend on the processing

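The numbers of genes past a test depended on the fit and the libraries. Every one of the 145 and 94 genes that was still tested kept the sign of its difference in each alternative run. They were chosen for their differences in these same libraries, so a kept sign was likely in advance and lends no support. For liver above and below MEFs the counts, 145 and 94, were 26 and 3 with no filter on low values, 16 and 3 with no variance trend, 92 and 60 with the sex of the liver embryos as a covariate, 360 and 475 with 1 fit over all libraries, 88 and 45 with limma-voom on the MEF reads, 103 and 34 with the trend on length and GC content removed, 1039 and 1357 with the sex of the MEF libraries as a covariate, and 2134 and 1923 with WT MEF 3 and G2A liver 3 both left out. The last 3 were chosen after the data were seen. By Xist, WT MEF 3 was the only WT MEF of the same sex as both G2A MEFs. With the MEF sex as a covariate the MEF effect was therefore that against WT MEF 3 alone, here and below. The counts with this covariate rest on that single WT library. The share above among the calls moved from 60.7% to 89.7%, 84.2%, 43.1%, 75.2% and 43.4% with no filter, no trend, 1 fit, the length and GC trend removed and the MEF sex. The mean of both effects, past the test in 4 genes higher and 4 lower, gave 1 higher with no filter, 7 and 7 with quantile normalization, 2 higher with no variance trend, 7 and 7 with 1 fit, 249 and 184 with the MEF sex and 1611 and 1298 with both libraries left out. Shared genes, 3 higher and 0 lower, were 1 higher with no filter and with no trend, 1 lower with 1 fit, 76 and 17 with the MEF sex and 504 and 249 with both libraries left out. In liver alone 4 genes were higher with the embryo sex. In MEFs alone 212 were higher and 245 lower with the MEF sex, and 391 and 644 with DESeq2. The causes were not tested.

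The replicate number as a block gave 1793 genes above and 1897 below, 1891 higher and 1816 lower in MEFs, 1 higher in liver, 1337 and 1118 for the mean, 220 shared higher and 142 shared lower, and median differences of -0.364 for proteasome assembly and 0.639 for hypoxia. In MEFs a block by number leaves WT MEF 3 without a partner. With the block in liver and none in MEFs, added after the data were seen, 139 genes stood above and 89 below, 130 and 83 of them among the 145 and 94, with 2 higher for the mean and 0 shared. Psmd9, P4ha2 and Me1 then missed the threshold of the difference (adjusted p = 0.0505, 0.0528 and 0.0591 by limma). The labels name littermate pairs of livers but do not say that the numbers mark them, and same-numbered livers did not all deviate together (r = 0.18, -0.10 and 0.10), so the numbers were not taken to pair the samples and litter stays unmodelled. In MEFs, with 2 G2A libraries, such correlations cannot show pairing.

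The correlation of effects was -0.344 (Spearman) and -0.18 (Pearson) with the MEF sex, and -0.101 (Spearman) with both libraries left out. Median differences of the 18 lists plotted kept their sign in every alternative run. The integrated stress response stood at 0.325 with stricter minimums, ER chaperones at 0.559 and cytosolic ribosomal proteins at -0.233 with quantile normalization. With the length and GC trend removed proteasome subunits stood at -0.415, N-myristoylation enzymes at -0.693, the respiratory chain at -0.172, mitochondrial ribosomal proteins at -0.355 and cytosolic ones at -0.0664. With the MEF sex proteasome subunits stood at -0.696, ER chaperones at 0.291, p53 targets at 0.568, mitosis at -0.897, the respiratory chain at -0.546 and mitochondrial ribosomal proteins at -0.694. With both libraries left out proteasome assembly stood at -0.394 and hypoxia at 0.706.

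Leaving out each replicate in turn moved the counts to between 2 and 1586 above and 0 and 1676 below, 0 to 1578 higher and 0 to 1562 lower in liver, 0 to 1544 and 0 to 1532 in MEFs, 0 to 1142 and 0 to 984 for the mean, and 0 to 191 and 0 to 130 shared. The correlations ranged from -0.298 to -0.133 (Spearman) and from -0.0994 to 0.0166 (Pearson). Median differences ranged from -0.657 to -0.555 for proteasome subunits, -0.364 to -0.177 for assembly, -0.648 to -0.529 for N-myristoylation enzymes, 0.333 to 0.475 for ER chaperones, 0.0407 to 0.13 for ERAD, 0.478 to 0.733 for the integrated stress response, 0.236 to 0.639 for hypoxia, 0.158 to 0.387 for p53 targets, 1.53 to 1.91 for collagens, 0.503 to 0.86 for matrix glycoproteins, 0.492 to 0.762 for matrix proteases, 0.345 to 0.672 for TGF-beta, 0.309 to 0.676 for receptor kinases, -0.621 to -0.471 for replication, -0.597 to -0.107 for mitosis, -0.468 to -0.361 for the respiratory chain, -0.615 to -0.464 for mitochondrial and -0.486 to -0.276 for cytosolic ribosomal proteins.

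Of 76 results on single genes, all kept their direction in every alternative in which they could be tested; 66 lost their side of the threshold without G2A MEF 1, 66 without G2A MEF 2, 60 without WT MEF 1, 56 with no variance trend, 53 with no filter, 52 without WT liver 3, 51 without G2A liver 2, 47 without G2A liver 1 and 42 without WT liver 2, and 17 or fewer in each other alternative. Most of these genes were chosen for their values in the same libraries, so the kept directions lend no support. The read depth of the liver libraries is unknown, so no counting limit is given for them.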
